A study of Rattus norvegicus with 4 samples.

Results

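The Zfp genes encode zinc finger proteins, and all genes whose symbol is Zfp followed by digits alone were taken as members. By this rule 245 of the 14750 genes with an annotated m6A peak were Zfp genes. They have 241 symbols, because Zfp790 was listed under 3 gene IDs, and Zfp689 and Zfp94 under 2 each. MeRIP-seq was used to map N6-methyladenosine (m6A) in the hypothalamic arcuate nucleus (ARC) of female Sprague-Dawley rats, at 3 weeks (ARC_212, 21 days) and 5 weeks (ARC_352, 35 days). Each age was 1 pool of tissue from 3 rats, from which 1 input library of fragmented poly(A) RNA and 1 library precipitated with an m6A antibody (IP) were made. No treatment or genetic change separates the ages, and with 1 IP and 1 input library each, no difference between them has a replicate check.

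Zinc finger proteins fold short loops of the chain around a zinc ion, and in the common C2H2 form cysteine and histidine side chains hold the metal. Strings of such fingers read DNA sequence, and some bind RNA or other proteins instead. Many mammalian members also carry a KRAB domain, which recruits the corepressor Trim28 and, through it, the machinery of heterochromatin, and these genes lie in clusters that arose by duplication. The m6A mark is laid down on pre-mRNA and mRNA, often near the stop codon, and is read by proteins that act on the splicing, translation and decay of the transcript.

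The Zfp genes listed at 1 age were nearly all listed at the other. The rule takes only genes with a listed peak, so Zfp genes without one at either age are not counted. Peaks were listed for 242 Zfp genes at 3 weeks and for 243 at 5 weeks, and 240 had a peak at both ages. Genes listed at 3 weeks alone made up 4.75% of all genes in the series and those listed at 5 weeks alone 8.49%. Among the Zfp genes there were 2 of the first kind and 3 of the second. Zfp648 had 1 exonic peak at 3 weeks, with a log2 enrichment of IP over input of 6.14, and Zfp296 had 1 at 4.18. At 5 weeks alone, Zfp658 had a stop codon peak at 3.90, Zfp341 had 2 peaks of which the stronger was at 2.70, and Zfp335 had 1 exonic peak at 1.97. A missing peak is a region that the authors' caller did not list, so the level of the transcript and of its m6A cannot be read from it.

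The libraries were described only through their peak lists. The lists held 29653 peaks at 3 weeks and 33056 at 5 weeks, with no read counts, so depth and input levels are unknown. Among 12 arcuate marker genes, 5 were listed with m6A at 3 weeks and 9 at 5 weeks, while Agrp, Kiss1 and Ghrh were listed at neither age. Of 6 pituitary markers, 1 was listed at 3 weeks (Lhb) and 1 at 5 weeks (Pomc, which is also an arcuate marker), and of 3 choroid plexus and 3 ependymal or tanycyte markers, 1 each at either age. A gene without a peak may still be expressed, so these counts are not a test of the dissection.

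Zfp transcripts held more m6A peaks than other transcripts, and the peaks were more strongly enriched. The 615 Zfp peaks at 3 weeks were 2.07% of all peaks, and the 652 at 5 weeks were 1.97%. There were 2.54 peaks per Zfp gene with a peak at 3 weeks and 2.68 at 5 weeks. A single peak was found in 27.7% of Zfp genes and 40.5% of all genes at 3 weeks, and in 28.4% and 36.4% at 5 weeks. The median log2 enrichment was 3.85 for Zfp peaks and 3.16 for those of all other genes at 3 weeks, or 14.4-fold and 8.95-fold over input. At 5 weeks the medians were 3.46 and 2.80, or 11-fold and 6.94-fold. No test was made of these differences, since peaks are not replicates of an age.

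The peaks of Zfp genes lay at stop codons more often than those of all other genes, as did those of the other zinc finger families described below. Stop codon peaks made up 32.4% of the Zfp peaks at 3 weeks (95% Wilson interval 28.8% to 36.2%) and 24.4% of the peaks of all other genes. At 5 weeks the shares were 30.8% (27.4% to 34.5%) and 22.8%. The 5' UTR also held a larger share in Zfp genes, with 11.4% against 8.05% at 3 weeks and 13.0% against 7.38% at 5 weeks. Exons away from the start and stop codons held less, with 22.8% against 27.9% and then 22.1% against 29.8%. Shares in 3' UTRs were close, at 25.0% against 26.3% and 27.0% against 27.3%. The intervals cover counting error over peaks only, and each region is as annotated by the authors.

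**Figure D1:**
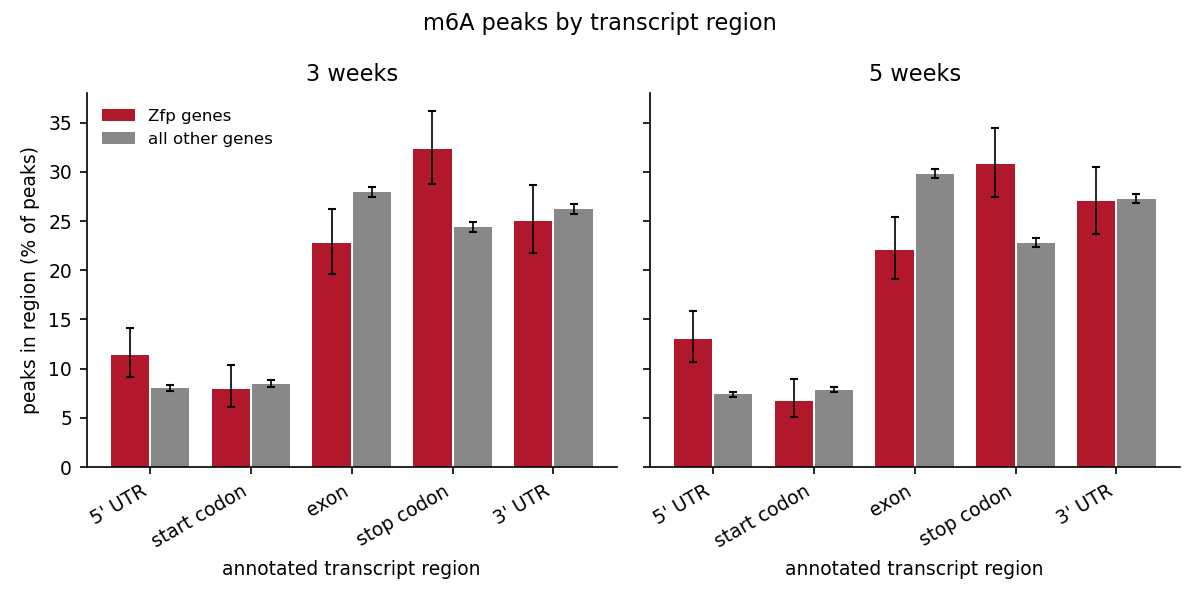
Share of m6A peaks in each annotated transcript region (y axis, percent of peaks) at 3 weeks and 5 weeks, for Zfp genes and for all other genes, with 95% Wilson intervals over peaks as error bars. The stop codon bar is the highest for Zfp genes at both ages, at 32.4% and 30.8%, while exons hold the largest share in other genes, at 27.9% and 29.8%.

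Stop codon peaks were also the strongest of the Zfp peaks. They had a median log2 enrichment of 4.72 at 3 weeks, against 4.08 for the stop codon peaks of other genes, and 4.06 against 3.52 at 5 weeks. The excess was present at start codons, with 4.13 against 3.32 and then 3.51 against 2.95, and in exons, with 3.39 against 2.90 and then 3.17 against 2.61. It was small in 3' UTRs, with 2.78 against 2.64 and 2.58 against 2.42, and in 5' UTRs the medians were 3.05 against 3.09 and 2.91 against 2.79. When each gene was taken by its strongest peak, that peak lay at the stop codon in 158 of 242 Zfp genes (65.3%) at 3 weeks and 155 of 243 (63.8%) at 5 weeks, compared with 40.5% and 38.6% of all genes. In the 96 Zfp genes with paired peaks both at the stop codon and elsewhere, the stop codon peak exceeded the median of the gene's other paired peaks in 80 at 3 weeks and in 69 at 5 weeks. Over all 3637 such genes the share was 73.0% at 3 weeks and 66.8% at 5 weeks, against 83.3% and 71.9% of the Zfp genes.

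**Figure D2:**
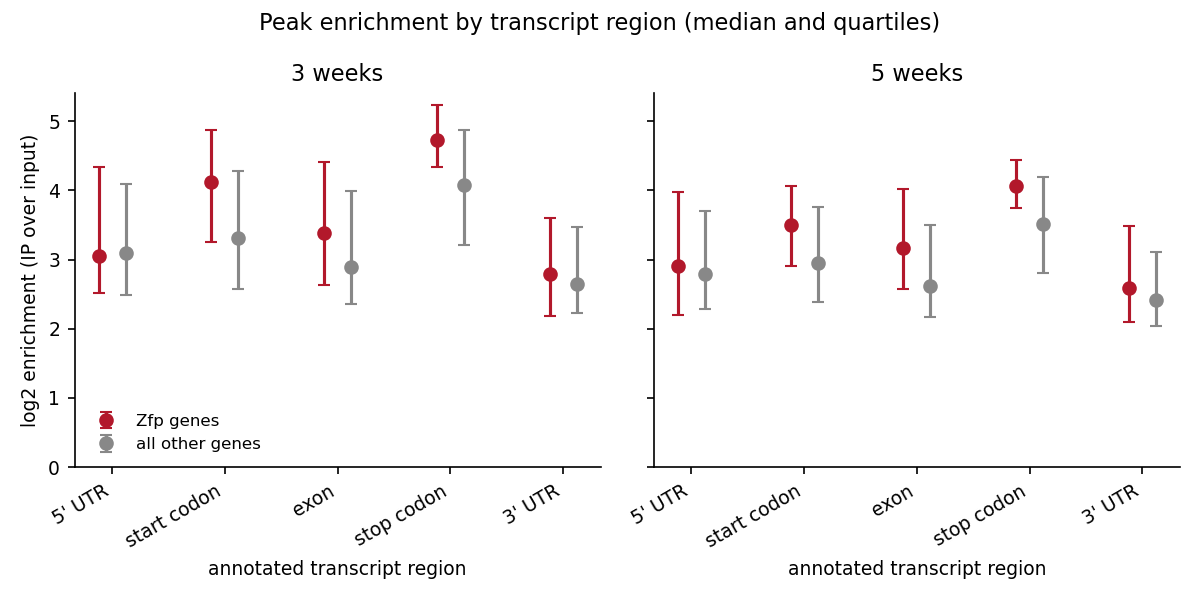
Median log2 enrichment of IP over input (y axis) by annotated transcript region at 3 and 5 weeks, for Zfp genes and all other genes, with the quartiles over peaks as bars. At stop codons the Zfp median is 4.72 at 3 weeks and 4.06 at 5 weeks, above 4.08 and 3.52 in other genes, while the 5' UTR medians lie close together.

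Stop codon peaks of Zfp genes nearly always had a counterpart at the other age. Of the 3-week Zfp peaks, 84.1% overlapped a 5-week peak of the same gene by at least 1 base, and 82.1% of the 5-week Zfp peaks had a 3-week partner. In the whole series 17.2% of the 3-week peaks and 25.7% of the 5-week peaks had no such partner. Among Zfp stop codon peaks, 98.0% at 3 weeks and 97.5% at 5 weeks had a partner, close to the 95.8% and 92.5% of stop codon peaks in all genes. For the 5' UTR peaks of Zfp genes the shares were 64.3% and 61.2%. The 98 Zfp peaks without a partner at 3 weeks had a median log2 enrichment of 2.57, against 4.14 for those with one. At 5 weeks, 117 peaks lacked a partner and their median was 2.34, against 3.68.

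Zfp genes linked to KRAB domains had a larger share of their peaks at stop codons than the other Zfp genes. The authors' KEGG annotation places 111 of the Zfp genes in the entry on herpes simplex virus infection, in which KEGG collects KRAB zinc finger proteins, and the other 134 outside it. This split was chosen after the files had been seen, and it rests on the annotation alone. The median log2 enrichment of the peaks was 4.31 in the KRAB entry and 3.56 in the other Zfp genes at 3 weeks, and 3.65 and 3.37 at 5 weeks. Within regions the entry was not higher throughout. At stop codons its median was 4.85 against 4.66 at 3 weeks and 4.05 against 4.15 at 5 weeks, in exons 3.64 against 3.30 and 3.51 against 3.08, and in 3' UTRs 2.67 against 2.89 and 2.48 against 2.67. In 5' UTRs it was 3.17 against 2.97 and 2.42 against 3.13, and at start codons, over 8 peaks of the entry at each age, 3.75 against 4.13 and 3.20 against 3.60. Stop codons held 39.9% of the peaks in the entry (33.9% to 46.2%) and 27.6% outside it (23.3% to 32.3%) at 3 weeks, then 39.5% and 25.3% at 5 weeks. Start codons went the other way, with 3.36% of peaks in the entry and 10.9% outside it at 3 weeks, and 3.16% and 9.02% at 5 weeks. All 95 stop codon peaks of the entry at 3 weeks had a partner at 5 weeks.

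A second split used the position of the genes. Another Zfp gene lay within 200 kb of 121 members, 75 of them in the KRAB entry, and 124 members, with 36 in the entry, had none so close. The medians of clustered and isolated genes were 3.98 and 3.67 at 3 weeks and closer together at 5 weeks, and their paired peaks changed by a median of -0.45 and -0.47. Chromosome 1 held 73 Zfp genes, the largest number, and 11 chromosomes held at least 10. The median of the Zfp peaks was above that of all peaks on the chromosome at both ages on 9 of these 11. The exceptions were chromosome 19 at 3 weeks and chromosome 12 at 5 weeks. Members of a cluster can be near-identical in sequence, and how reads that fit several genes were counted is not stated in any source used here, so values of single members of a cluster, and of the genes with several IDs, are uncertain.

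Paired peaks were then compared between the ages, to see how the marking of Zfp transcripts differed at 5 weeks, when female rats are near puberty. A pair was a 3-week and a 5-week peak of the same gene and strand that were each other's best overlap, with an overlap in the same annotated region preferred. The change is the log2 enrichment at 5 weeks minus that at 3 weeks, and a change of at least 2-fold was called. There were 454 pairs in 239 Zfp genes, of which 430 lay in the same region at both ages. Their median change was -0.46, with quartiles of -0.88 and 0.05, and 335 of the 454 pairs were below 0. Over all 22346 pairs of the series the median was -0.31, and 69.1% were below 0, against 73.8% of the Zfp pairs. Whether an enrichment differs because of the mark, the antibody step or the mix of cells in the pool cannot be told apart here, and in bulk tissue fewer cells of a type cannot be told from less RNA per cell.

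Of the Zfp pairs, 83 (18.3%) were at least 2-fold weaker at 5 weeks and 27 (5.95%) at least 2-fold stronger. In the whole series 15.5% of pairs were weaker and 4.82% stronger, so the Zfp counts lay near the background. Weaker pairs fell in 73 Zfp genes and stronger pairs in 24, with 13 genes holding both kinds, while 25% of all genes with a pair held a weaker and 8.18% a stronger one. After centring on the median of all pairs, 40 Zfp pairs were weaker and 36 stronger, against backgrounds of 8.7% and 8.01%. The change went with the level of enrichment in Zfp genes as in all genes. The median was -0.19 for Zfp pairs with a mean log2 enrichment of 2 to 3 and -0.13 for all such pairs, -0.32 and -0.38 for 3 to 4, -0.64 and -0.63 for 4 to 5, and -0.76 and -0.71 for 5 or more. At a matched level from 2 upwards, the medians of Zfp pairs thus lay close to those of all pairs.

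**Figure D3:**
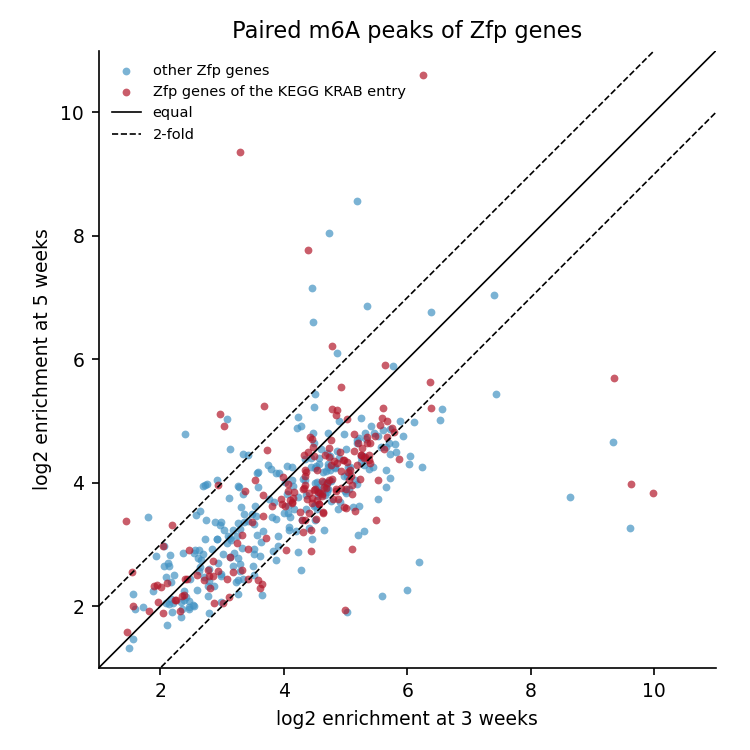
Log2 enrichment at 3 weeks (x axis) and 5 weeks (y axis) of the 454 paired peaks of Zfp genes, coloured by the KEGG entry for KRAB zinc finger proteins, with lines for equal values and for a 2-fold difference. Most points lie just below the line of equal values, with 335 of 454 below it (73.8%, against 69.1% of all pairs of the series). A few pairs with a log2 enrichment above 7 at 1 age stand far from it.

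By region, the largest median change of Zfp pairs was at stop codons. It was -0.68 over 195 stop codon pairs, against -0.54 over all stop codon pairs, with 44 weaker (22.6%) and 5 stronger (2.56%), near the 20.6% and 3.0% over all stop codon pairs. Start codon pairs had a median of -0.50, against -0.28 over all, and exonic pairs -0.31, against -0.16. The 3' UTR pairs had -0.19, against -0.23 over all. The 41 5' UTR pairs of Zfp genes had -0.36, against -0.24 over all 5' UTR pairs, of which 63.3% were below 0. In the KRAB entry 15 of 17 such pairs were below 0, with a median of -0.81, and in the other Zfp genes 10 of 24, with a median of 0.21. These few pairs lay in 12 and 18 genes and had unlike 3-week medians, of 4.06 and 3.31. Whether the entry itself goes with the change was not tested. Across all regions the entry had a median change of -0.58 over 181 pairs, with 33 weaker and 11 stronger, and the other Zfp genes had -0.41 over 273 pairs, with 50 and 16.

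**Figure D4:**
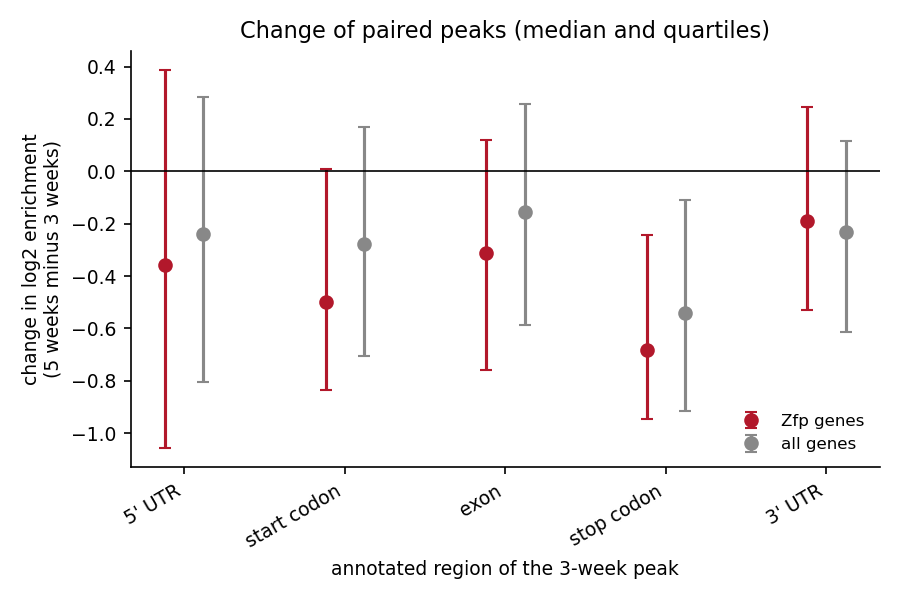
Change in log2 enrichment of paired peaks (y axis, 5 weeks minus 3 weeks) by the annotated region of the 3-week peak, for Zfp genes and all genes, as the median with quartiles over pairs. The stop codon medians are the lowest, at -0.68 for Zfp genes and -0.54 for all genes, and the 3' UTR medians lie at -0.19 and -0.23.

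The measured changes of peaks within 1 transcript differed, in Zfp genes about as in all genes. Of 127 Zfp genes with at least 2 pairs, all pairs were lower at 5 weeks in 57 (44.9%, against 40.2% of all such genes), all were higher in 7, and 63 had both. The median distance between the highest and lowest change within a gene was 0.90 on the log2 scale, against 0.82 over all genes. Zfp407 had the most peaks, 8 at 3 weeks and 11 at 5 weeks. Its 5' UTR held a pair at 5.81 and then 4.50, a change of -1.31, and another at 2.68 and then 3.94, a change of 1.26. The stop codon pair of Zfp407 changed by -0.15.

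Zfp574 had 8 and 10 peaks. Its stop codon peak had a log2 enrichment of 6.52 that was 5.02 at 5 weeks, while its start codon peak was at 3.26 and 3.94, a change of 0.69. Zfp618 had 7 and 8 peaks, with -0.59 at the stop codon and 0.60 and 0.64 at a pair of 3' UTR peaks. The stop codon peak of Zfp347 changed by -1.61, from 6.04 to 4.44, and its 3 paired 5' UTR peaks by 0.13 to 0.59. In Zfp526 the stop codon peak was at 5.73 and 4.87, and a 3' UTR peak rose 2-fold or more, from 2.72 to 3.96. The joint table of peaks called over both ages instead holds a 3' UTR peak of Zfp526 at 3.40 and 1.62, a change of -1.78. Zfp319 and Zfp68, each with 13 peaks over both ages, held no called pair. Zfp329, with 14, held a stronger 3' UTR pair at 1.80 and 3.44 beside a stop codon pair at 4.68 and 3.96. The peaks of these genes thus lay in several regions, and in most of the genes their measured changes differed in sign or size. Without replicate libraries, how much of this is measurement spread cannot be told.

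The largest changes were those of peaks with extreme enrichment at 1 age. In Zfp831 the stop codon peak (chromosome 3, bases 163508668 to 163509092 as listed, with no build named for the rat coordinates) had a log2 enrichment of 9.60 that was 3.26 at 5 weeks, a change of -6.34. Zfp455 had a stop codon peak at 9.99 and 3.83, a change of -6.16, and an exonic peak that changed by 0.62. Zfp82 had a 3' UTR peak at 9.62 and 3.98, a change of -5.64. The exonic and stop codon peaks of Zfp475 changed by -4.86 and -4.67, from 8.64 and 9.33 at 3 weeks, and the stop codon peak of Zfp473 by -3.65, from 9.35. On the other side stood Zfp663, with an exonic peak at 3.28 and 9.35, a change of 6.07. The stop codon peak of Zfp112 (chromosome 1, bases 79690981 to 79691980) was at 6.25 and 10.60, a change of 4.35. Zfp287 (5' UTR) and Zfp366 (3' UTR) had changes of 3.38 and 3.32 at these peaks, and -1.02 and -1.18 at their stop codons.

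Peaks of this kind were short and had weak p-values for their size. At each age 11 Zfp peaks had a log2 enrichment of at least 7, which was 1.79% of the Zfp peaks at 3 weeks and 1.69% at 5 weeks, and 2.55% and 1.49% of all peaks. Their median length was 375 bases at both ages, against 1200 and 1000 bases for the other Zfp peaks. The median -log10 of the authors' p was 5.81 and 5.90, against 131 and 110 for Zfp peaks with an enrichment of 4 to 7. Input levels are not in the lists, and the part that a low input has in these values was not tested. Several had no counterpart at the other age: a 3' UTR peak of Zfp329 at 9.72 at 3 weeks, and at 5 weeks a 3' UTR peak of Zfp202 at 9.31 and a 5' UTR peak of Zfp362 at 9.12. In the 440 Zfp pairs under 7 at both ages the median change was again -0.46, with 76 weaker and 21 stronger.

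Other large changes mostly involved peaks of ordinary enrichment. Zfp566, of the KRAB entry, had a 5' UTR peak at 5.00 and 1.93, a change of -3.07, beside a stop codon peak that changed by -0.31. Zfp862 had a stop codon peak at 5.02 and 1.91 and a 3' UTR peak at 5.20 and 3.16, changes of -3.11 and -2.04, and an exonic peak at 3.33 and 4.46. Zfp653 had an exonic peak of 100 bases at 5.99 that was paired with one of 3118 bases at 2.26, introns included, and a stop codon peak that changed by -1.36. Zfp101 had a start codon peak at 4.40 and 7.77, a change of 3.38, and its 5-week value lay in the range of at least 7 described above. Zfp772 had a start codon peak at 4.47 and 6.61, a change of 2.14. Zfp771 had a stop codon peak at 3.08 and 5.03 and a 5' UTR peak at 4.65 and 3.24. In Zfp790 an exonic peak changed by 2.14, while the 3 stop codon peaks, each under its own gene ID, changed by -0.67 to -1.17.

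Some pairs depended on which of several overlapping peaks was taken, because listed peaks run across introns. Zfp609, which in mouse acts in cortical neuron migration, had a stop codon peak spanning 100022 bases at 3 weeks, at 5.58, and its 5-week stop codon peak of 597 bases was at 2.17. A 5-week peak labelled start codon, at 4.75, also overlapped it, and in the table of peaks called over both ages the stop codon region of Zfp609 differed by -1.11. The rise of 2.39 in Zfp608 was of the same kind, since its 3-week start codon peak, at 5.73, overlapped the 5-week stop codon peak of 104706 bases. Zfp775 had 6.19 and 2.71 at the stop codon, with a 3' UTR peak at 4.47 overlapping at 5 weeks, and a difference of -2.17 in the joint table. Among the 321 Zfp pairs whose peaks overlapped no other peak, the median change was -0.46, with 54 weaker (16.8%) and 19 stronger (5.92%), against 14.2% and 4.57% of all such pairs.

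The authors' table of peaks called over both ages gives an enrichment per age for peaks with p under 0.05, and thus holds peaks chosen for their difference. In it 285 peaks of 182 Zfp genes had a median difference of -0.99. Of these 140 (49.1%) were at least 2-fold weaker and 22 (7.72%) at least 2-fold stronger at 5 weeks, with 46.9% and 10.6% over all 12704 rows. The Zfp share thus lay near the background here too.

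RNA-binding and ribosome-associated Zfp genes were compared as 1 role list, and all 9 had paired peaks. Of 19 pairs, 4 were at least 2-fold weaker and 1 stronger, with a median of -0.49, beside 15.5% and 4.82% called over all pairs. Zfp36 encodes tristetraprolin, which binds AU-rich elements in 3' UTRs and promotes mRNA decay. Its own 3' UTR peak was at 4.23 and 2.88, a change of -1.36, while its peak labelled stop codon at 3 weeks and exon at 5 weeks was at 4.87 and 6.10, a change of 1.23. Zfp622, whose yeast relative Rei1 acts in the maturation of the large ribosomal subunit, had a 5' UTR peak at 5.65 and 4.21 and a start codon peak at 4.89 and 5.00. In the joint table this start codon peak was at 4.87 and 4.00, a change of -0.88. Zfp326, a component of a complex that couples elongation with splicing, had an exonic peak at 4.40 and 3.27, a change of -1.14. The 3' UTR peak of Zfp830 changed by -1.01 and its stop codon peak by 0.13. Zfp598, a ubiquitin ligase that recognises collided ribosomes, had a stop codon peak at 3.41 and 3.38. Zfp106, needed for motor neuron upkeep in mouse, had changes of -0.50 to -0.09 over 4 pairs. Zfp638 had -0.56 to 0.24 over 4 pairs, Zfp207 had -0.51 at its 1 pair, and Zfp346, which binds double-stranded RNA, had 0.17.

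**Figure D5:**
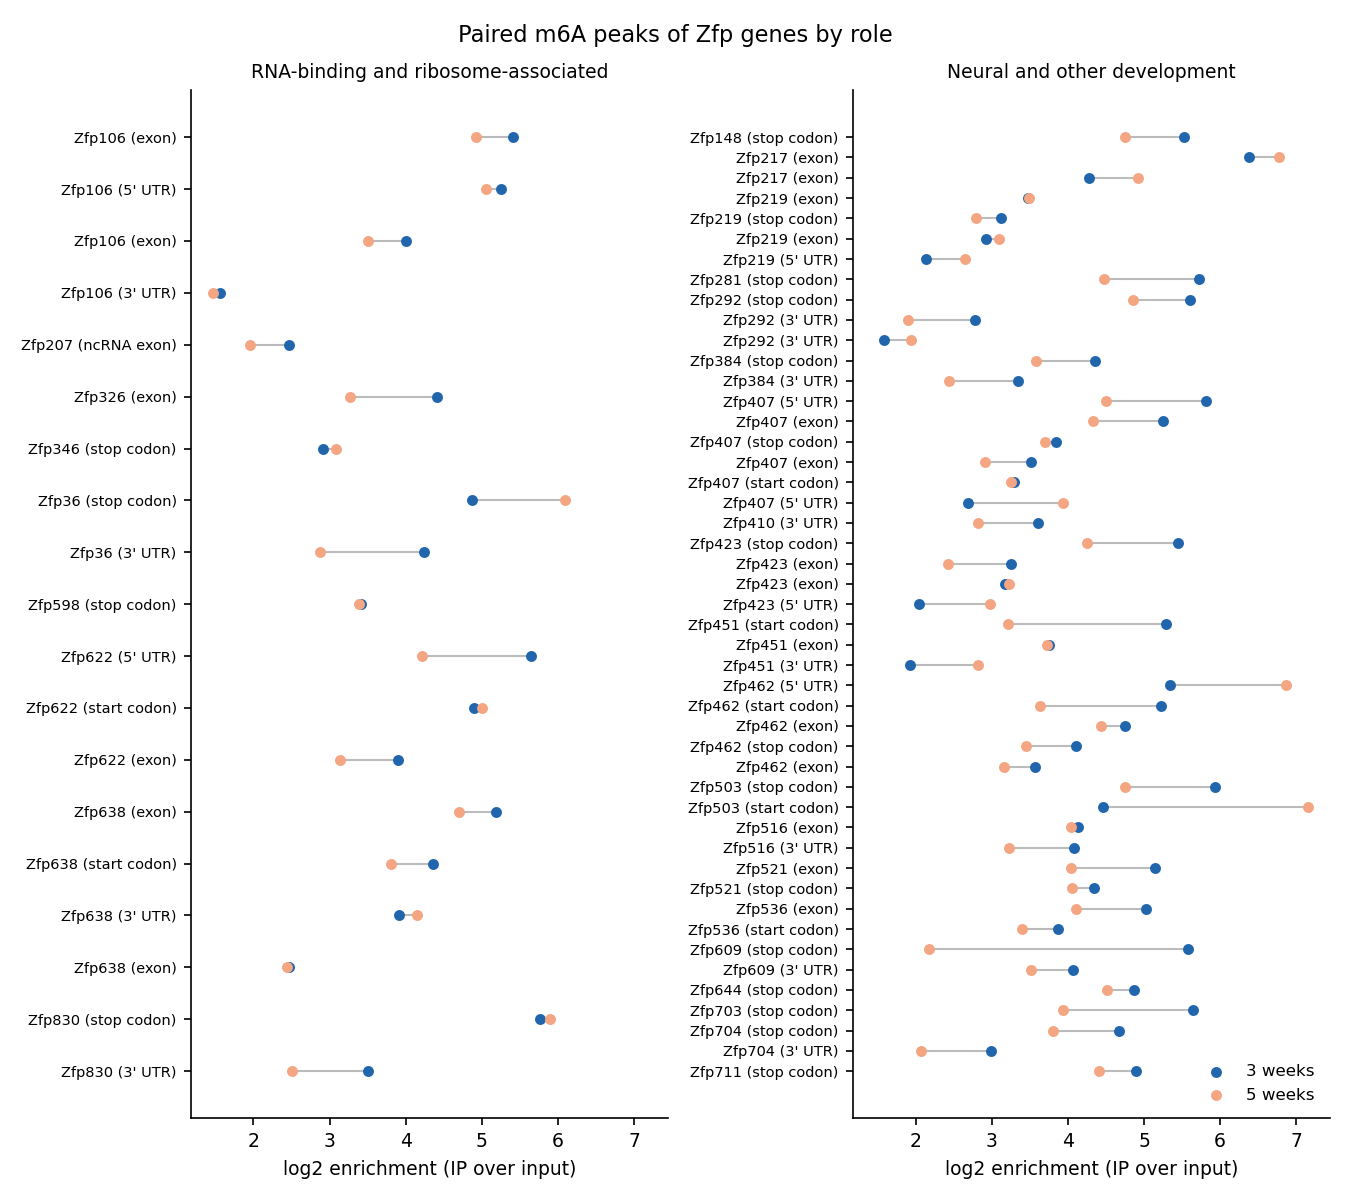
Log2 enrichment of IP over input (x axis) at 3 weeks and 5 weeks of each paired peak of the RNA-binding and ribosome-associated Zfp genes and of the Zfp genes of neural and other development, with a line joining the ages and the region of the 3-week peak in brackets. The 3-week point is to the right in most pairs, 14 of 19 in the first list and 35 of 47 in the second. Over all pairs of the series, 69.1% were lower at 5 weeks. An exception is a Zfp503 peak at 4.46 and 7.15, labelled start codon at 3 weeks and exon at 5 weeks.

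The Zfp genes of neural and other development gave 47 pairs in 20 genes, with a median of -0.56, 9 weaker (19.1%) and 3 stronger (6.38%), beside 15.5% and 4.82% over all pairs. Weaker pairs lay in 9 of the 20 genes, beside 25% of all genes with a pair. The 2 shares are not on an equal footing. The list had more pairs per gene than the 22346 pairs in 12507 genes of the series, so each gene had more chances to hold one. Zfp423, a factor of cerebellar and adipocyte development, had a stop codon peak at 5.45 and 4.25, a change of -1.21, and a 5' UTR peak at 2.05 and 2.98. Its paralogue Zfp521, which acts in neural differentiation, had an exonic peak at 5.15 and 4.04, a change of -1.11. The stop codon peak of Zfp703 was at 5.65 and 3.93, a change of -1.71, and that of Zfp281, a factor of pluripotent cells, at 5.73 and 4.47, a change of -1.25. In Zfp451, a SUMO ligase, the start codon peak was at 5.29 and 3.21, a change of -2.08. In the joint table the same stretch held a stop codon peak at 5.50 and 3.96, a change of -1.54. The start codon peak there was at 3.94 and 2.96, a change of -0.98. The start codon and 5' UTR peaks of Zfp462, which acts in brain development, moved in opposite directions, from 5.22 to 3.63 and from 5.35 to 6.86. Zfp503, a factor of striatal development, had a stop codon peak at 5.94 and 4.76. Its other pair, at 4.46 and 7.15, was labelled start codon at 3 weeks and exon at 5 weeks. The 5-week value of that pair lay in the range of at least 7 described above. Both paired exonic peaks of Zfp217 were higher at 5 weeks, at 6.38 and 6.77 and at 4.28 and 4.92, under the 2-fold threshold.

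Several members of this list held no called pair. The stop codon peaks of Zfp148, Zfp292, Zfp704 and Zfp711 changed by -0.78, -0.76, -0.87 and -0.50. Zfp384 had -0.78 and -0.90, Zfp410 had -0.79 in its 3' UTR, Zfp516 had -0.85 and -0.09, Zfp536 had -0.92 and -0.46, and Zfp644 had -0.36 at the stop codon. In the joint table some peaks of these genes passed 2-fold. Zfp704 had -1.27 at the stop codon, Zfp384 -1.03 and -1.05, Zfp536 -1.18 in an exon, and Zfp410 -2.34 in its 5' UTR. Zfp644 had 2.24 in its 3' UTR and 2.64 and 3.82 in its 5' UTR. The stop codon peaks of Zfp148, Zfp292 and Zfp711 stayed under 2-fold there, at -0.91, -0.95 and -0.70. Zfp219 had changes of -0.33 to 0.51 over 4 pairs. Zfp238 is an older symbol of Zbtb18 in RefSeq, under which its peaks were listed, and it was counted with the Zbtb genes. Over all 47 pairs of the list, 35 were lower at 5 weeks, and 9 of the 47 by at least 2-fold. In the series 69.1% of all pairs were lower.

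Of 5 Zfp genes that keep imprints or silence retroelements, 2 were measured, and none of their 4 pairs reached 2-fold. Zfp57, which in mouse binds methylated imprinting control regions, had a stop codon peak at 3.66 and 3.46 and a 3' UTR peak at 2.59 and 2.50. Zfp445, which acts beside it, had a start codon peak at 4.09 and 3.28 and a stop codon peak at 4.57 and 3.94. Zfp568, Zfp809 and Zfp932 had no listed peak under these symbols.

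The Z3 complex joins Zfp532, Zfp592 and Zfp687 with the chromatin reader Zmynd8. Its 12 pairs had a median of -0.42, with 1 weaker and 1 stronger, both in Zfp592. There the stop codon peak was at 4.45 and 3.08, a change of -1.37, and an exonic peak at 2.76 and 3.98, a change of 1.22. That exonic pair joined a peak of 406 bases with one of 13864 bases that a start codon peak at 4.90 also overlapped at 3 weeks, and in the joint table the exonic peak of this stretch was at 4.79 and 3.61, a change of -1.18. Zfp532 had a stop codon peak at 4.20 and 3.22 and 3 more pairs with changes of -0.97 to -0.38. Zfp687 had 8 peaks at 3 weeks and 3 at 5 weeks, and its pairs changed by -0.85 to 0.35. In the joint table Zfp532 had -1.05 at the stop codon, -1.23 and -0.45 in exons and 2.43 in its 5' UTR. Zfp687 had -1.08 at the stop codon and -1.11 in an exon there.

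Peaks of genes for partners of the KRAB zinc finger proteins had lower medians than the Zfp peaks, near those of all other genes. Of 19 corepressor and heterochromatin genes, listed by 21 symbols because Tasor and Morc2 were also entered by their synonyms, 17 had a peak. Their median was 3.01 at 3 weeks and 2.88 at 5 weeks, and their 41 pairs changed by a median of -0.27, which became 0.04 after centring on all pairs, with 4 weaker (9.76%) and 2 stronger (4.88%). Trim28, the corepressor that KRAB domains bind, had 1 peak at 3 weeks, at 2.14, and none at 5 weeks. Setdb1, the histone methyltransferase that Trim28 recruits, changed by -0.34 at its pair. Tasor, of the HUSH silencing complex, had 9 and 11 peaks, with 3 of its 9 pairs weaker. Morc2, an ATPase that works with HUSH, had changes of -1.28 to 4.82, the last at a peak with 8.33 at 5 weeks. The heterochromatin protein genes Cbx1, Cbx3 and Cbx5 had changes of 0.13, 0.54 and 0.01.

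The 4 other zinc finger families had higher medians than the 3.85 of the Zfp peaks at 3 weeks. At 5 weeks only the Znf median was above the 3.46 of the Zfp peaks. All the families but Klf had a larger share of weaker pairs than the 15.5% of all pairs and the 18.3% of Zfp pairs. These shares were not matched by level of enrichment. Over their pairs the 3-week medians were 4.44 for Zbtb, 4.23 for Zscan and Zkscan, 4.41 for Klf and 4.61 for Znf. The medians were 4.33 for Zfp pairs and 3.42 for all pairs. Of all pairs with a mean log2 enrichment of 4 to 5, 24.6% were weaker. The 37 Zbtb genes, which pair fingers with a BTB domain, had medians of 4.23 at 3 weeks and 3.27 at 5 weeks, and 23 of 70 pairs (32.9%) were weaker and 0 stronger, with a median of -0.69, or -0.38 after centring, against -0.15 for Zfp pairs. The 17 Zscan and Zkscan genes had 4.02 and 3.31, with 9 of 30 pairs (30.0%) weaker, 0 stronger and a median of -0.70, or -0.39 after centring. The 14 Klf genes, Krüppel-like factors, had 4.01 and 3.35, with a median change of -0.58 over 20 pairs, 2 of them weaker and 1 stronger. The 8 Znf genes had 4.49 and 3.61, with 6 of 15 pairs weaker, 0 stronger and a median change of -0.67. At 3 weeks stop codons held 31.25% of Zbtb peaks, 39.5% of Zscan and Zkscan, 44.4% of Klf and 44.4% of Znf peaks, against 32.4% for Zfp. At 5 weeks the shares were 26.4%, 33.3%, 44.8% and 38.1%, against 30.8%. A large stop codon share was thus not particular to the Zfp genes. Those families hold few peaks and pairs, and no test was made between the families.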

How the data were processed

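MeRIP-seq libraries of the ARC, 1 input and 1 IP per age, were grouped by age alone. The study states trimming with Cutadapt, and per the submitters' processing notes fastp 0.19.4 and HISAT2 2.0.4 were used. The peak caller, its scaling and the annotation release were not given in these sources. Although a human build is noted, the lists use rat chromosomes and gene IDs, and coordinates are printed as listed. The authors' deposited peak lists give the log2 enrichment of IP over input per peak. The authors' caller also gave each peak's p-value and adjusted p-value, and the deposited lists hold only peaks with p under 0.05. The joint table also holds the authors' own fold change, p-value, direction and significance of the comparison, which were not used: differences were computed from its columns of enrichment per age.

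Peaks of the same gene and strand with at least 1 shared base were paired when each was the other's best overlap. The preference for the same region was set after seeing that peaks spanning introns overlap several others. The pairing was tested on simulated lists of well-separated peaks, which does not cover peaks that overlap several others. Shares have 95% Wilson intervals. With 1 library per kind and age, no test across genes was run, and a change of at least 2-fold was called. Without read counts, the depth of a library and its precision are unknown. Named genes were those with the most peaks, the highest enrichment, the largest changes or peaks at 1 age only, and the members of 5 lists fixed by role. The members and lists were chosen with earlier results of these data known. RefSeq (GRCr8) held 238 of the 241 symbols. Motifs and protein features were not analysed here. Alternatives covered the threshold, symbol rule, overlap, pairing, centring, joint table, pairs per gene and fold. Python 3.11.15, numpy 2.4.6, pandas 2.3.3, scipy 1.17.1 and matplotlib 3.10.9 were used.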

Additional observations from a re-analysis of the deposited data

How the results depend on the processing

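No paired analysis was possible because each group had 1 library and the result came from no test. Over 15 alternatives, 95 of 129 values moved by less than their error or limit, 33 moved further and 1 changed sign. With at least 0.5 of the shorter peak shared, 78.2% of 5-week Zfp peaks had a partner, and with 0.5 of both peaks 56.9% at 3 weeks and 53.7% at 5 weeks, with 15 stronger pairs and a median of -0.53. Centring on all pairs left 40 weaker Zfp pairs and medians of -0.15 for Zfp, -0.38 for Zbtb and, with its sign changed, 0.038 for the corepressor list, with 2 weaker. In the table of joint peaks, 140 Zfp peaks were weaker, with medians of -0.99 for Zfp, -0.85 for the corepressor list (10 weaker), -1.27 for Zbtb, -1.24 for Zscan and Zkscan and -0.99 for Klf. That table holds only peaks chosen for their difference. With 1 pair per gene, 55 were weaker and 13 stronger, with medians of -0.60 for Zfp and -0.87 for Zbtb, and 1 weaker corepressor pair. At 1.5-fold there were 193 weaker and 48 stronger Zfp pairs and 12 weaker corepressor pairs, and at 3-fold 25, 13 and 1. By the strongest peak per gene, stop codons held 65.3% and 63.8%, with medians of 4.78 and 4.24. Of the alternatives added after seeing the data, pairs that overlap no other peak left 54 weaker Zfp pairs and 2 weaker corepressor pairs. The larger overlap alone gave 90 weaker and 24 stronger Zfp pairs and a median of -0.48. Depth, input levels and animal-to-animal spread are not in the lists and limit every comparison between the ages.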
